A study of Mus musculus with 12 samples.

Results

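Regions called in chromatin immunoprecipitation sequencing (ChIP-seq) of FOXP3 and of Ku70 in mouse T cells were examined where they lay at the promoters of protein-coding genes. A region belonged to the set when its summit, the point of highest pileup, fell within 3 kb of any transcript start of a protein-coding gene in GENCODE M21 on chromosomes 1 to 19, and 812 of the 9381 regions in the 4 lists did. An interval of 3 Mb on chromosome 4 was left out. FOXP3 was precipitated from regulatory T cells (Treg) of wild type (WT) Foxp3 Yfp-Cre mice and of Xrcc6 fl/fl Foxp3 Yfp-Cre mice (KO), in which Cre driven by Foxp3 deletes the gene of Ku70, Xrcc6, in Treg. Ku70 was precipitated from WT Treg and from conventional T cells (Tconv) of Foxp3 Yfp-Cre mice. Treg were sorted as CD4+CD25+YFP+ cells and Tconv as CD4+CD25-YFP- cells, all lines were on the C57BL/6J background, and the age of the mice used for ChIP-seq is not given in the sources used here. Each set comprised 2 biological replicates and 1 input, and the authors called regions on the pooled replicates, so that each set has 1 list and no list has a replicate check. The name fields of single regions read iTreg, Teff or CKO instead of Treg, Tconv or KO, the groups were taken from the labels, and a list of regions cannot show which cells it came from. All intervals given are 95% intervals that cover counting error only, and they describe the lists, not the conditions.

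A promoter is the stretch of DNA around a transcription start where general factors and RNA polymerase II assemble, and most promoters of widely used mouse genes lie in CpG-rich DNA. FOXP3, the forkhead transcription factor that defines the Treg lineage, binds enhancers and promoters through its DNA-binding domain and through partner factors. Ku70 forms with Ku80 the ring that slides onto broken DNA ends and starts end joining, and it has also been found at transcribed genes.

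The sequences on which the following results turn are given on the plus strand of GRCm38 (mm10, RefSeq), as the summit with 50 bases on each side. The first set is shown because these FOXP3 regions hold the letters TGTTTAC, the core recognised by forkhead proteins, or their reverse complement, which stand in capitals.
Ect2, FOXP3 in KO, chr3:27154063-27154163: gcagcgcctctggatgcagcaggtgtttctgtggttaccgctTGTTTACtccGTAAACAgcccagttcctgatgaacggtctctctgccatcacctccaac
Zbtb5, FOXP3 in KO, chr4:45012487-45012587: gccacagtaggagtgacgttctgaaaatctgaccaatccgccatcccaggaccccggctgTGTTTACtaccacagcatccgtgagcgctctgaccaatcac
H2-M9, FOXP3 in WT, chr17:36641029-36641129: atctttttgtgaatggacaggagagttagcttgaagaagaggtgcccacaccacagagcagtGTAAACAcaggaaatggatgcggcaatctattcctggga
The Ect2 sequence holds the core in both orientations, separated by 3 bases.

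The second set is shown because histone genes carried a large group of Ku70 regions in Treg. Capitals mark CpG dinucleotides, and all 4 sequences lie in coding exons.
Hist1h1c, chr13:23739333-23739433: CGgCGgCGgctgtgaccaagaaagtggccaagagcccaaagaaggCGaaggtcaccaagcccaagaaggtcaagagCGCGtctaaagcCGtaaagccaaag
Hist1h3f, chr13:23544555-23544655: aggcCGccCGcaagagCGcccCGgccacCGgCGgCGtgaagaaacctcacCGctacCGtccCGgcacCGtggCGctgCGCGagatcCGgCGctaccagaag
Hist1h4h, chr13:23531204-23531304: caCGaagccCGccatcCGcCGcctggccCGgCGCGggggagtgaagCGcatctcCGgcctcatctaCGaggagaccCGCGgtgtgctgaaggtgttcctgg
Hist1h2ak, chr13:21753564-21753664: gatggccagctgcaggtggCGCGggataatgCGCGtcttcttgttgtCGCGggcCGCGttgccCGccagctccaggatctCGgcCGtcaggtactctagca
The Hist1h1c stretch holds 7 CpGs, those of Hist1h4h and Hist1h2ak hold 12 and 11, and that of Hist1h3f holds 16.

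The third set holds the strongest region and 3 of the 12 places found in more than 1 list, chosen among those whose summit sequence occurs once in the list shown, and capitals mark the 31 bases at the summit, which were counted across the genome assembly.
Kpna1, Ku70 in Treg, chr16:35981696-35981796: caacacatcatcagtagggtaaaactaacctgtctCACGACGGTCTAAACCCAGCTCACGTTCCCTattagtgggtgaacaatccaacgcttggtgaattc
Mkln1, FOXP3 in WT and KO, chr6:31489979-31490079: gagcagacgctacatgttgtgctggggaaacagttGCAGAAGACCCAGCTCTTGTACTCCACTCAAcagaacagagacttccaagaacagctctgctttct
Gm47996, FOXP3 in WT and KO, chr1:151209059-151209159: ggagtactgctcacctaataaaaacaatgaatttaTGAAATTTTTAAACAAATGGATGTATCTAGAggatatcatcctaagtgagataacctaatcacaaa
Coil, Ku70 in Treg and Tconv, chr11:88970127-88970227: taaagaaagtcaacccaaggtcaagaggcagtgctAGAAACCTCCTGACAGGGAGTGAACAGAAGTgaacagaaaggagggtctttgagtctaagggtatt
By that choice the capitals occur once in the assembly. Allowing 90% identity over 80 bases, however, the Gm47996 stretch had 394 matches including itself, that of Kpna1 had 3, that of Coil had 2 and that of Mkln1 had 1. The Kpna1 stretch, read on the minus strand, resembles the 28S ribosomal RNA by general knowledge. A 28S gene sequence was not used here, so the likeness was not computed, and the counts of copies cover the assembly alone.

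Promoter regions made up 5.85% of the FOXP3 regions of WT Treg (96 of 1641 on chromosomes 1 to 19, interval 4.81 to 7.09), the lowest share of the 4 lists. The share was 9.74% for FOXP3 in KO Treg (48 of 493, 7.42 to 12.7), 9.38% for Ku70 in Treg (476 of 5072, 8.61 to 10.2) and 12.3% for Ku70 in Tconv (192 of 1565, 10.7 to 14.0). The windows of 3 kb hold 9.879% of the bases of these chromosomes. The share of WT FOXP3 regions thus lay below that of the bases, those of KO FOXP3 and Treg Ku70 had intervals that held it, and that of Tconv Ku70 lay above. With starts of protein_coding transcripts alone, Tconv Ku70 stood at 6.96% where the windows hold 6.866% of the bases.

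**Figure D1:**
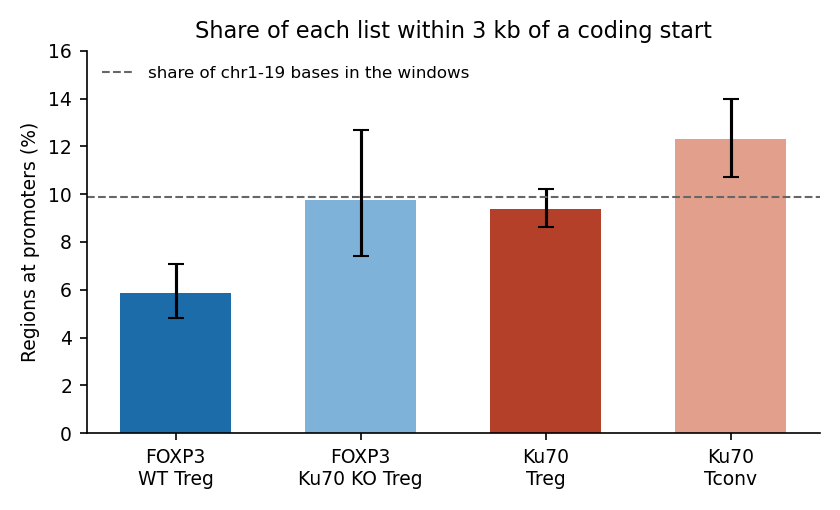
Share of each list (vertical axis, percent of regions on chromosomes 1 to 19) with a summit at a promoter. That is within 3 kb of a transcript start of a protein-coding gene. Bars are the shares and error bars the 95% Wilson intervals (counting error only), and the dashed line is the 9.879% of bases inside the windows: the bar of FOXP3 in WT Treg, 5.85%, sits below the line and that of Ku70 in Tconv, 12.3%, above it.

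The promoter share of FOXP3 regions was 3.89 percentage points higher in KO than in WT (Newcombe interval 1.26 to 7.0), and 5.65 points higher among regions whose summit sequence occurs once (2.20 to 9.83). Among regions with a −log10 p of 2 or more the difference was 5.36 points, with an interval from -0.116 to 11.8. For Ku70 the share was 2.88 points higher in Tconv than in Treg (1.14 to 4.77), but at gene 5′ ends alone the order turned, with 4.41% in Tconv and 4.65% in Treg. Treg Ku70 exceeded WT FOXP3 by 3.53 points (2.07 to 4.86), a difference of 1.29 points at a −log10 p of 2 or more (-2.35 to 4.05). The lists differ in length, and the number of reads behind each was not analysed here, so depth and promoter share cannot be told apart.

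Within the windows, the summits of Ku70 regions in Treg were the closest to the starts. Of the 476 regions, 123 lay within 500 bp of a start (25.8%, 22.1 to 30.0), whereas that inner zone holds 21.75% of the window bases. The corresponding shares were 18.2% in Tconv (35 of 192), 16.7% for FOXP3 in WT (16 of 96) and 20.8% for FOXP3 in KO (10 of 48). The median distance was 1220 bp for Ku70 in Treg, 1328 bp for Ku70 in Tconv, 1491 bp for FOXP3 in WT and 1536 bp for FOXP3 in KO. Among the Treg Ku70 regions, 72 summits lay in the first 500 bp downstream of the start and 51 in the 500 bp upstream of it. The share within 500 bp in Tconv minus that in Treg was -7.61 points (-13.9 to -0.491). Without the histone regions described below the difference was -6.44 points, with an interval from -12.8 to 0.676.

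**Figure D2:**
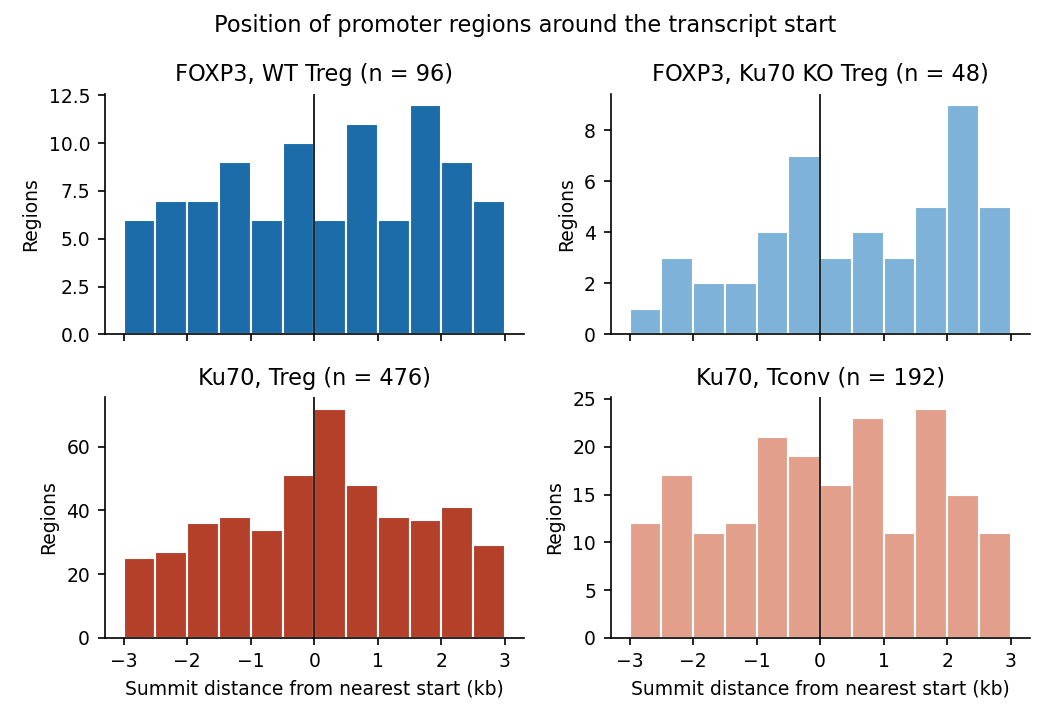
Histograms of the summit distance from the nearest start for the promoter regions of each list. The horizontal axis is in kb (upstream negative, 500-bp bins) and the vertical axis gives the number of regions. A start is that of any transcript of a protein-coding gene. The Treg Ku70 histogram has its highest bar just downstream of the start, with 72 of 476 regions, whereas the highest bars of the other panels lie more than 500 bp downstream.

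A start here is that of any transcript of the gene, and 49.6% of the Treg Ku70 members, 35.9% of the Tconv Ku70 members, 55.2% of the WT FOXP3 members and 58.3% of the KO FOXP3 members were also within 3 kb of the outermost 5′ end of a gene. Most summits lay in introns: 62.5% for FOXP3 in WT, 56.2% for FOXP3 in KO, 54.2% for Ku70 in Treg and 64.6% for Ku70 in Tconv. Coding exons held between 7.81% (Ku70 in Tconv) and 10.7% (Ku70 in Treg) of the members. At the edge of the window, the Tconv Ku70 region at Mfsd10, 3000 bp from its start, was the last inside (1.85-fold over input), and the Treg Ku70 region at Sfi1, at 3002 bp, was the first outside (1.84-fold). For FOXP3 in WT the nearest on each side were at Zmym4 (2927 bp, 2.00-fold) and Olfr399 (3035 bp, 1.99-fold), and for FOXP3 in KO at Bach2 (2898 bp, 2.33-fold) and Cyp2c29 (3132 bp, 1.79-fold).

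The promoter regions were weak calls in every list. Their median enrichment over input was 2.14-fold for FOXP3 in WT, 2.19-fold for FOXP3 in KO, 2.04-fold for Ku70 in Treg and 2.10-fold for Ku70 in Tconv, with median −log10 p of 1.86, 1.49, 1.47 and 1.92. In the WT FOXP3 list the fold ran from 1.60 to 3.19, in the KO FOXP3 list from 1.70 to 3.93, in the Treg Ku70 list from 1.39 to 5.47 and in the Tconv Ku70 list from 1.5 to 3.45. Many members shared exactly the same values: 139 of the 476 Treg Ku70 members (29.2%) had a fold of 1.85 with a −log10 p of 1.47, and 20 of the 96 WT FOXP3 members (20.8%) had a fold of 2.14 with a −log10 p of 1.86. Regions away from promoters had similar medians, 2.01-, 2.19-, 2.04- and 2.16-fold in the same order.

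After the peak caller's correction for multiple testing, 1 of the 812 regions had a q below 0.05. It was the Ku70 region of Treg at Kpna1, an importin alpha that carries proteins into the nucleus, at chr16:35981660-35981829 in an intron, 1569 bp upstream of a start. Its enrichment was 5.47-fold, with a −log10 p of 9.32 and a −log10 q of 3.25. Its sequence is printed above. The counts past that threshold among the other regions were 1 of 1545 for FOXP3 in WT, 1 of 445 for FOXP3 in KO, 7 of 4596 for Ku70 in Treg and 2 of 1373 for Ku70 in Tconv.

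**Figure D3:**
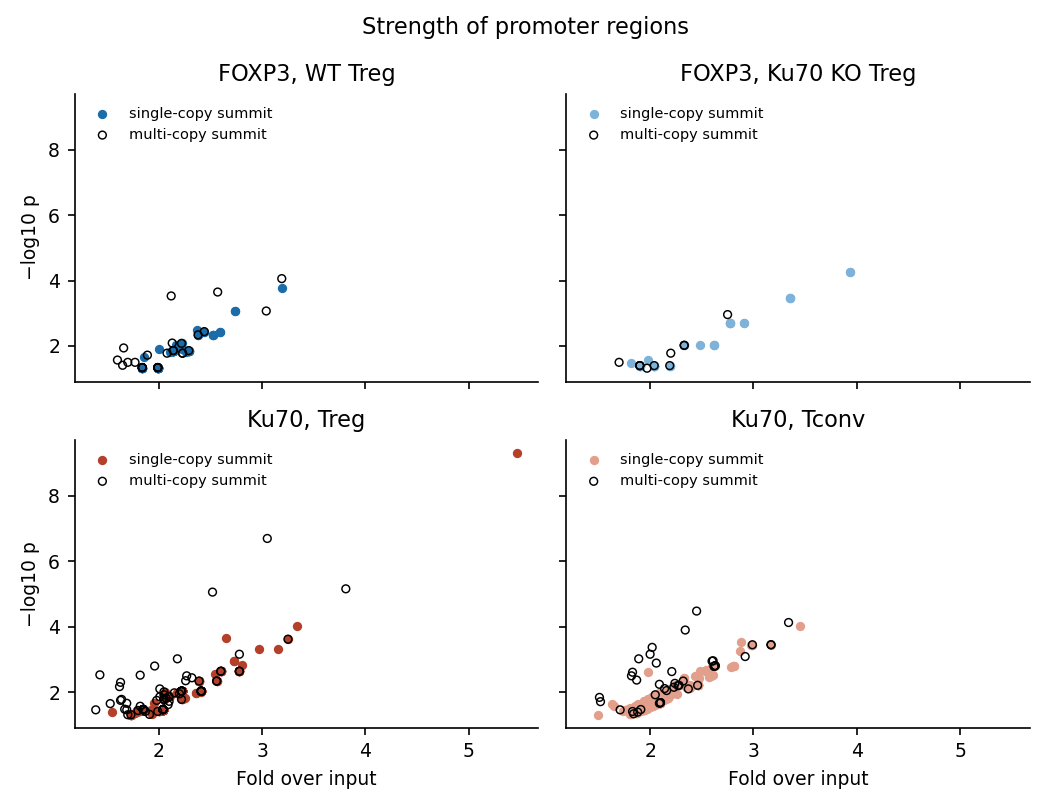
Fold over input (horizontal axis) against −log10 p (vertical axis) for the promoter regions of each list, as the authors' peak caller gave them, with 1 point per region. Filled points have a summit sequence found once in the assembly and open points one found more often; the point at 5.47-fold and −log10 p 9.32 in the Treg Ku70 panel is Kpna1, and most points lie near 2-fold.

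Part of the regions lay on sequence that occurs more than once. The 31 bases at the summit had more than 1 copy in 31.2% of the WT FOXP3 members (30 of 96), 22.9% of the KO FOXP3 members (11 of 48), 19.1% of the Treg Ku70 members (91 of 476) and 22.4% of the Tconv Ku70 members (43 of 192). Away from promoters the shares were 32.9%, 36.9%, 27.7% and 29.8%. Repeat-masked bases filled over 50% of the region in 10.1% of the Treg Ku70 members and in 32.7% of the other Treg Ku70 regions. Reads from one copy can be placed at another, so a member with many copies cannot be assigned to its gene alone.

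Among the 11 gene lists examined, histone genes had the highest share with a Ku70 region in Treg. Of the 75 histone genes on these chromosomes, 28 had a Treg Ku70 summit within 3 kb of a start (37.3%, 27.3 to 48.6), against 2.32% of all 20776 protein-coding genes (482 genes). These genes encode the core proteins of the nucleosome and the linker histone H1, and those named Hist lie in dense clusters and are switched on when DNA is replicated. Because neighbouring histone genes often start from a shared stretch, the 28 genes rest on 18 regions, 15 of them on chromosome 13, 2 on chromosome 3 and 1 on chromosome 11. The interval above treats the genes as independent, which they are not. With each region counted for its nearest gene only, 17 of the 75 genes had one (22.7%).

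The windows around histone starts span 290 kb, so that Treg Ku70 regions lay there at 62.1 per Mb, whereas the density over all promoter windows was 2.01 per Mb. No histone gene had a region in the other lists (0 of 75 in each, which allows up to 4.87% by the Wilson interval). At the density of all their members, 0.118 regions would fall in these windows for FOXP3 in WT and 0.0588 for FOXP3 in KO. For Ku70 the value is 0.235 in Tconv and 0.583 in Treg, which had 18 regions. These values do not give the count that the Treg pattern would bring in the shorter lists. Each set has 1 pooled list and depth was not analysed, so a difference in cells cannot be told apart from depth. All classes were represented, with 3 of 6 H1 genes, 7 of 24 H2A, 7 of 18 H2B, 7 of 14 H3 and 4 of 13 H4 genes. Of the clustered genes named Hist, 27 of 67 had a region, and of the H2af and H3f3 genes 1 of 8, H3f3b, at 2788 bp from its start.

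The strongest histone region lay in the coding exon of Hist1h1c, a linker histone, at chr13:23738921-23739499, with 3.34-fold enrichment and a −log10 p of 4.03. A second region at chr13:23739669-23739950, 1.85-fold, followed it in the same gene. Hist1h1d, another linker histone, carried the widest of all the Treg Ku70 members, 963 bp at chr13:23555140-23556102, with 2.73-fold enrichment. Over the 18 regions the fold ran from 1.85 to 3.34 with a median of 2.31, and none reached a q below 0.05.

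Histone summits lay downstream of the starts in 17 of the 18 regions, the exception being Hist1h2bm. Coding exons held 11, untranslated exons 3 and sequence outside protein-coding genes 4. Among the last were Hist1h3h (2.60-fold, 430 bp downstream of the start) and Hist1h3c (2.39-fold, 652 bp downstream). The 18 regions had a median GC content of 57.1% over the 150 bp to each side, against 44.2% for all Treg Ku70 members. In 10 of the 18 the summit sequence occurred once, as in the Hist1h1c and Hist1h3f sequences printed above. In the others it occurred more than once, at places that were not annotated here: the Hist1h2ak summit occurred 20 times, that of Hist1h2bq 15 times and that of Hist1h4h 6 times, so the gene of origin cannot be assigned. A single-copy summit can still have near copies. Under the looser matching used above for the third set, the Hist1h3f stretch had 13 matches including itself, and that of Hist1h1c had 1. Counting single-copy summits alone, without regard to near copies, left 12 histone genes (16% of 75), and a window of 1 kb left 18 (24%).

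**Figure D4:**
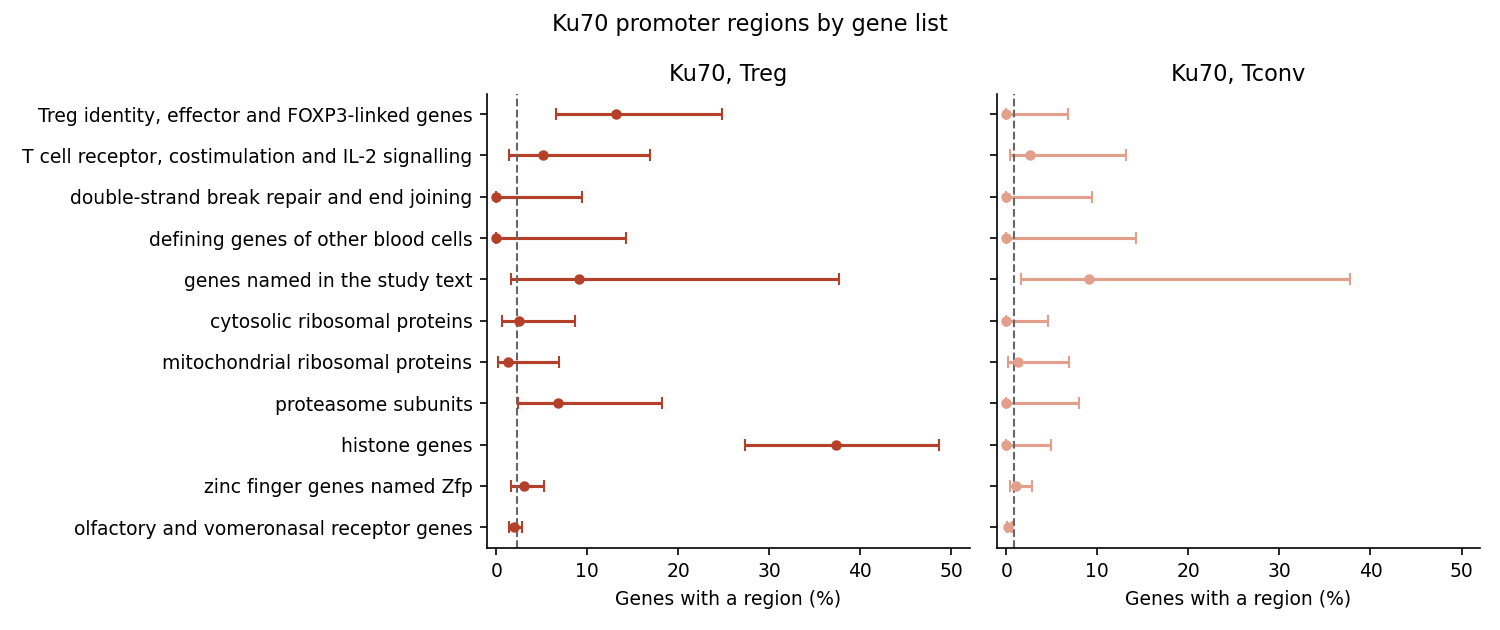
Share of the genes of each list (horizontal axis, percent; points with 95% Wilson intervals, counting error only) that had a Ku70 summit within 3 kb of a start, for Treg and for Tconv. Dashed lines are the shares over all protein-coding genes, 2.32% and 0.881%; the histone genes stand at 37.3% in the Treg panel and at 0 in the Tconv panel.

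Genes of Treg identity and function also carried Ku70 regions in Treg, at 7 of 53 genes (13.2%, 6.55 to 24.8) against 2.32% of all genes. The 53 are those of 54 listed genes that lay on the chromosomes examined, and a density per Mb was not computed for them. The list was chosen with earlier results of these data known, and alternative settings were not run for it. Il2ra, the interleukin 2 receptor alpha chain CD25 by which Treg were sorted, had a single-copy region of 2.78-fold at chr2:11645550-11645853, 2928 bp downstream of a start, and another of 2.41-fold whose summit sequence occurred 5010 times. Cish, a cytokine-induced inhibitor of STAT5 signalling, had a 2.78-fold region 1060 bp downstream. Icos, a costimulatory receptor, had 2.22-fold 1849 bp upstream, and Nt5e, the ectoenzyme CD73 that makes adenosine, had 2.22-fold 2279 bp downstream. The transcription factor genes Satb1, Foxp1 and Prdm1 had 2.04-, 1.85- and 1.81-fold, at 250 bp upstream, 462 bp downstream and 1485 bp downstream. The Ku70 regions at these 7 genes had −log10 p between 1.42 and 2.64, and none had a q below 0.05. Of the 7 genes, Satb1 and Foxp1 alone had a region within 1 kb of a start.

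None of the 53 Treg genes had a promoter region in the WT FOXP3 list or the Tconv Ku70 list (0 of 53, up to 6.76%), where 0.472% (98 genes) and 0.881% (183 genes) of all genes had one. In the KO FOXP3 list, which reached 0.245% of all genes (51 genes), 2 of the 53 had a region. They were Gata3, a T helper transcription factor, with 2.04-fold 373 bp upstream of a start, and Bach2, a repressor that restrains effector differentiation, with 2.33-fold at 2898 bp.

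In the remaining lists the counts are to be read against the shares of all genes, 2.32% for Ku70 in Treg, 0.881% for Ku70 in Tconv, 0.472% for FOXP3 in WT and 0.245% for FOXP3 in KO. Of 39 genes of T cell receptor, costimulatory and interleukin 2 signalling, Nfkb1 (1.85-fold) and Cd247 (2.10-fold, 16 copies) had a Treg Ku70 region, and Cblb, a ubiquitin ligase that limits activation, had a Tconv Ku70 region of 2.18-fold. In no list did any of the 37 genes of break repair and end joining have a promoter region (0 of 37, up to 9.41%), nor did any of the 23 defining genes of other blood cells (0 of 23, up to 14.3%). From the study text, 11 genes that it names as expression changes or bound targets were examined. Of these, Il2ra had the Treg Ku70 regions given above. Tnfrsf19, a tumour necrosis factor receptor family member, had a Tconv Ku70 region of 2.81-fold 571 bp upstream of a start. Proteasome subunits had 3 of 44 in the Treg Ku70 list (Psma5, Psmd14 and Psme2, at 1.73- to 2.22-fold), cytosolic ribosomal proteins 2 of 80 from 1 region, mitochondrial ribosomal proteins 1 of 78, and the genes named Zfp 11 of 367 (3.00%, 1.68 to 5.29). For Ku70 in Treg the intervals of these gene lists held the 2.32% of all genes, except that of the proteasome, whose lower bound of 2.35% lay just above it. In Tconv the counts were 1 of 78 mitochondrial ribosomal proteins (Mrps21) and 4 of 367 Zfp genes. Olfactory and vomeronasal receptor genes, which T cells are not known to use, had regions at 11, 6, 29 and 3 of 1453 genes in the order FOXP3 in WT, FOXP3 in KO, Ku70 in Treg and Ku70 in Tconv. That is 0.757% for FOXP3 in WT, 0.413% for FOXP3 in KO and 2.00% for Ku70 in Treg, with intervals that held their shares over all genes. For Ku70 in Tconv it is 0.206% (0.0702 to 0.605), below its 0.881%.

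Some genes held several Treg Ku70 members. Sp100, a nuclear body protein induced by interferon, had 3 and its relatives Sp110 and Sp140 had 2 each. They belong to a stretch of duplicated genes around Sp100 on chromosome 1, chosen after its values were seen, which held 14 Treg Ku70 members, 4 Tconv Ku70 members and 2 WT FOXP3 members, 18 of these 20 with multi-copy summits. Actb (2.20- and 2.05-fold), Txnip (1.85- and 2.22-fold) and Cdkn1b (1.85- and 2.78-fold), which encode beta-actin, a glucose-responsive arrestin and the cell cycle inhibitor p27, had 2 each, all single-copy.

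Of the 5 strongest single-copy FOXP3 regions of KO Treg, the first 2 and 2 of the 3 tied behind them lay within 235 bp of a start. Ect2, which is needed for cytokinesis, and Lztfl1, a regulator of ciliary traffic, both had 3.93-fold enrichment with a −log10 p of 4.27, at 235 bp upstream and 3 bp downstream of their starts. Zbtb5, a zinc finger repressor, Lrrc61 and Gramd1a, a carrier of cholesterol at the endoplasmic reticulum, were tied at 3.35-fold with a −log10 p of 3.46, at 125, 37 and 1734 bp upstream of a start. The ratio of observed to expected CpG in the 150 bp to each side of these summits was 0.91, 0.92, 0.58, 0.84 and 0.10 in the order named, and the median of the KO members was 0.209. Ggt1, which breaks down glutathione, followed with 2.91-fold.

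In WT Treg the strongest single-copy FOXP3 regions were intronic or exonic and poor in CpG. They lay at 1700017N19Rik (3.19-fold, −log10 p 3.76), Slc9b2, a sodium-proton exchanger (2.74-fold), Syne2, the nuclear envelope protein nesprin-2 (2.74-fold), Vmn1r2, a pheromone receptor (2.37-fold), and Ceacam3 and Sncaip (2.59-fold each). Their distances from a start ran from 660 bp at Vmn1r2 to 2283 bp at Ceacam3, and their CpG ratios from 0 to 0.45. The strongest multi-copy member, at Abcg2, a drug efflux transporter, had 3.19-fold with 2 copies.

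For Ku70 in Treg, the single-copy regions that followed Kpna1 and Hist1h1c were at Oasl1, an interferon-induced regulator (2.65-fold, 92.3% repeat-masked), at Slc4a7, a sodium bicarbonate transporter (3.25-fold), and at AY761185 (3.15-fold). In Tconv they were at Scarb1, the receptor for high density lipoprotein (3.45-fold, −log10 p 4.02), Baz2b, a bromodomain protein (2.88-fold), Ankrd17 (3.17-fold), and Cog5, Dnm1l and Liph (2.99-fold each), of which Cog5 serves Golgi traffic, Dnm1l divides mitochondria and Liph is a lipase. The 6 Tconv summits lay between 519 and 2253 bp from a start. Sfi1, a centrosomal gene with nearby copies, held the strongest multi-copy Treg member (3.05-fold, −log10 p 6.70) and 4 Tconv members of 1.51- to 2.34-fold.

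CpG-rich sequence, taken as a GC content of at least 50% with a CpG ratio of at least 0.6 over the 150 bp to each side, was rare among the members. It marked 3 of 96 WT FOXP3 members (3.12%, 1.07 to 8.79), 5 of 48 KO FOXP3 members (10.4%, 4.53 to 22.2), 31 of 476 Treg Ku70 members (6.51%, 4.63 to 9.10) and 2 of 192 Tconv Ku70 members (1.04%, 0.286 to 3.72). The same measure held for 48.8% of the 20776 gene starts. Within 500 bp of a start the shares were 18.8% (3 of 16), 40% (4 of 10), 20.3% (25 of 123) and 2.86% (1 of 35). All lists but KO FOXP3, whose interval ran from 16.8 to 68.7%, thus lay below the gene starts there. The comparison is not of like positions: the gene starts are windows centred on gene 5′ ends. The summits lay up to 500 bp from a start of any transcript.

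The CpG-rich share of Tconv Ku70 members minus that of Treg Ku70 members was -5.47 points (-8.16 to -2.20), and -3.54 points without the histone regions (-5.99 to -0.442), which held 10 of the 31. With 50 bp to each side in place of 150, the shares were 5.21% in Tconv and 7.14% in Treg, a smaller gap whose interval was not computed. The KO and WT FOXP3 shares differed by 7.29 points with an interval from -0.876 to 19.2.

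**Figure D5:**
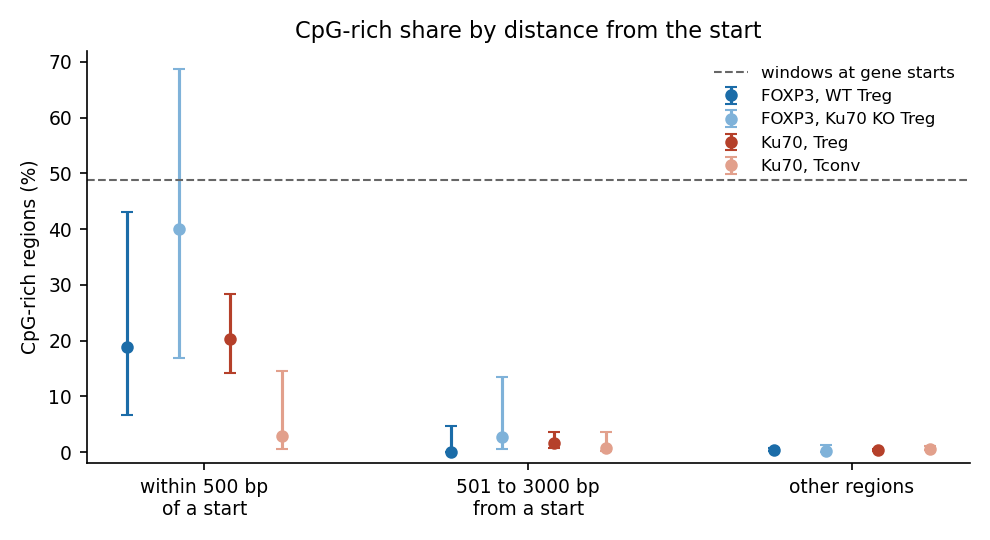
Share of CpG-rich regions (vertical axis, percent; points with 95% Wilson intervals, counting error only) among regions within 500 bp of a start, regions farther off but within 3 kb, and all other regions, by list. The dashed line is the 48.8% of windows at gene starts; points within 500 bp run from 2.86% for Ku70 in Tconv to 40% for FOXP3 in KO, and those of other regions are below 1%.

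Letters of known promoter and factor motifs were searched, on either strand, in the 50 bp to each side of the summit. The forkhead core TGTTTAC occurred in 2 of 96 WT FOXP3 members (2.08%, 0.573 to 7.28), at Ceacam14 and H2-M9, and in 2 of 48 KO FOXP3 members (4.17%, 1.15 to 14.0), at Ect2 and Zbtb5. It occurred in 4 of 476 Treg Ku70 and 2 of 192 Tconv Ku70 members, and in 0.78% of gene starts. Away from promoters the core was found in 1.42% of regions in the WT FOXP3 list and 1.80% in the KO FOXP3 list. Both values lay inside the intervals of the promoter members, so no excess of the core at promoters was seen within either FOXP3 list. For Ku70 the shares away from promoters were 1.04% in Treg and 0.728% in Tconv. The GC box GGGCGG was in 28.4% of gene starts but in 1, 2, 10 and 3 members of the lists in the order used above, and the ETS core CCGGAAG, in 6.80% of gene starts, was in 2, 2, 2 and 1. CCAAT was in 17.7%, 16.7%, 14.9% and 13.0% of the members and in 14.4% of gene starts, and TATAAA in 4.17%, 2.08%, 4.62% and 2.08% against 5.37%. CCAAT thus stood near its level at gene starts, TATAAA lay below it in Tconv Ku70 (interval 0.813 to 5.23), and the GC box stood below it in all 4 lists. Here too the gene starts are windows centred on gene 5′ ends, whereas the summits lay up to 3 kb from a start of any transcript. A match of letters is a description and not a site.

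Few regions were shared between lists, at promoters as elsewhere. Of the WT FOXP3 members, 3 of 96 overlapped a KO FOXP3 region by at least 1 bp, where 1.83% of all WT regions did. They were at Mkln1, a subunit of a ubiquitin ligase (2.14-fold in WT and 2.77-fold in KO, summits 19 bp apart), at the facing starts of 2010109A12Rik and the cyclin gene Ccni (1.99- and 2.77-fold, summits 35 bp apart) and at Gm47996 (2.22- and 1.82-fold, summits 122 bp apart, fully repeat-masked). These 3 also made up 6.25% of the 48 KO members, near the 5.62% of other KO regions that overlapped a WT region (25 of 445).

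Between FOXP3 and Ku70, 1 WT FOXP3 member overlapped a Treg Ku70 region (background 1.40%), at Gm10354, with 8 copies, 2.12-fold for FOXP3 and 1.63-fold for Ku70. Another, at Vps8, overlapped a Tconv Ku70 region (background 0.975%), with 3806 copies and wholly repeat-masked. Neither involved a single-copy WT FOXP3 member (0 of 66 with either Ku70 list, up to 5.50%). A single KO FOXP3 member overlapped a Treg Ku70 region, at Gm4707 (1.90- and 2.05-fold, background 3.04%), and another a Tconv Ku70 region, at B230307C23Rik (2.19- and 1.91-fold, background 1.22%).

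Ku70 in Treg and Tconv had 4 shared places among the 476 Treg members, where 0.710% of all Treg Ku70 regions overlapped one of Tconv, and 5 of the 192 Tconv members overlapped a Treg region, against 2.36%. Coil, the scaffold of Cajal bodies, had 1.55-fold in Treg and 1.82-fold in Tconv, 75 and 9 bp upstream of its start. Igfbp7, a secreted binding protein, had 2.22- and 2.46-fold. Each of these places had a summit of 2 copies in one of the lists, Coil in Tconv and Igfbp7 in Treg. The remaining shared places, 4930572O03Rik, 4930467E23Rik and Sfi1, had multi-copy summits in the lists where they were members.

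At the level of genes, 748 of 780 had promoter regions in 1 list, 30 in 2, 2 in 3 and none in all 4. The 2 were Mkln1, with single-copy regions in both FOXP3 lists and, at another start, a Treg Ku70 region of 2.78-fold, and C130026I21Rik, in the duplicated stretch of chromosome 1. WT FOXP3 and Treg Ku70 shared 12 genes, 12.2% of the 98 and 2.49% of the 482, where 2.32% and 0.472% of all genes were in the other list. Of these, 4 remained with single-copy summits, 5.80% of 69, namely Chil4, Ddx50, Met and Mkln1, whose FOXP3 and Ku70 summits lay apart. Treg and Tconv Ku70 shared 14 genes (2.90% of 482 and 7.65% of 183, against 0.881% and 2.32% of all genes). With single-copy summits 4 of these remained, 1.01% of 395, among them Ankrd17 and Cog5 named above, whose Treg regions had 2.04-fold each. The shares of all genes given here count summits of any copy number, and those with single-copy summits alone were not computed. The FOXP3 lists shared 4 genes (4.08% of 98 and 7.84% of 51, against 0.245% and 0.472%).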

How the data were processed

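FOXP3 and Ku70 ChIP-seq regions of 4 sets were taken as deposited. Per the study's methods, the authors trimmed reads, aligned them to mm10 with Bowtie2 and called regions with MACS2 on pooled replicates against input at a p of 0.05 with an extension of 140 bp. In the deposited lists, column 7 is the fold over input (a ratio), and the authors' −log10 p-value and −log10 q-value follow, with the summit offset as a score.

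Rows with the same coordinates were collapsed to the highest fold. Summits were compared with all 98086 transcript starts of protein-coding genes (GENCODE M21), whatever the transcript type. The 31 bases at each summit were counted on both strands of the primary assembly. Shares have Wilson and differences Newcombe 95% intervals, and no test was run because each set has 1 pooled list. Overlap means 1 bp or more. The functions for distances, overlaps and Wilson intervals were tested on simulated data, and the others were not. Python 3.11.15, pandas 2.3.3, pysam 0.24.0 and blastn 2.17.0 were used. Genes were named by rule: in each list the 6 single-copy and 3 multi-copy members with the highest −log10 p, members shared between lists, genes in 3 lists, genes of the gene lists and those at the window edge, of which a part is printed. Genes with several members and those with forkhead letters were named after their values were seen. The members and gene lists were chosen with earlier results of these data known. Read depth was not analysed here. A gene that the rule names is not reported here.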

Additional observations from a re-analysis of the deposited data

How the results depend on the processing

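Of 81 recomputed values, 51 stayed within the interval or spread of the reported value and 30 moved. A window of 1 kb gave promoter shares of 2.01% (FOXP3 in WT), 3.65% (FOXP3 in KO), 4.04% (Ku70 in Treg) and 5.05% (Ku70 in Tconv), where the windows hold 3.934% of bases. Starts of protein_coding transcripts alone gave 4.33%, 6.64% and 6.96% for WT FOXP3, Treg Ku70 and Tconv Ku70 (6.866% of bases), and gene 5′ ends alone 3.23%, 5.68%, 4.65% and 4.41% (4.778% of bases), so the excess of Tconv Ku70 over Treg Ku70 was not seen at gene 5′ ends. Single-copy summits gave 10.4% for Treg Ku70. A −log10 p of 2 or more gave 7.37% for WT and 12.7% for KO FOXP3, 38.1% of KO members within 500 bp, and CpG-rich shares of 23.8% (KO FOXP3) and 9.64% (Treg Ku70). Gene 5′ ends left 21.6% of Treg Ku70 members within 500 bp, CpG windows of 50 bp to each side gave 5.21% for Tconv Ku70, and motif windows of 100 bp to each side gave the forkhead core in 3.15% of Treg Ku70 members.

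With single-copy summits, shared members fell to 0 (WT FOXP3 with Treg Ku70) and 0.26% (Treg with Tconv Ku70), and shared genes to 5.80% and 1.01%; a 1 kb window left 2.86% of WT FOXP3 genes shared with Treg Ku70. WT and KO FOXP3 shared 0 members and 0 genes at a −log10 p of 2 or more. For histone genes, alternatives chosen after seeing the data gave 24% (1 kb), 16% (single-copy summits) and 22.7% (each region counted for its nearest gene). The cause of these shifts was not tested. The 1 kb windows and the smaller sets of starts cover fewer bases, so a lower promoter share there is given by the setting. Motif windows of 100 bp to each side search more bases. No paired analysis was possible because each set has 1 pooled list. Weak calls limit every count: at most 1 member passed a q of 0.05.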
